A study of Mus musculus with 20 samples.

Results

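Regulators of G protein signalling (RGS proteins) switch off the heterotrimeric G proteins that carry signals inward from membrane receptors, and 8 of their genes were followed here in mouse macrophages that lacked Trem2 or carried its R47H substitution. The genes were Rgs1, Rgs2, Rgs18, Rgs3, Rgs19, Rgs10, Rgs12 and Rgs14. They were chosen by symbol, with their levels already known, and are 8 of the 51456 gene symbols measured. The 13 other genes with an Rgs symbol are described after the 8.

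RNA was sequenced from day 6 bone-marrow-derived macrophages, which are macrophages grown from marrow cells in 50 ng/ml of the growth factor CSF-1. The groups were 5 libraries from mice labelled as a 5 bp knockout of Trem2 (KO, Trem2-/-), 5 from Trem2 R47H knock-in mice (R47H) and 10 from wild-type mice (WT). All mice were C57BL/6 and aged 4 to 5 months, and the genotype label of the knock-in states no zygosity. The study's design names wild-type littermates of each mutant and 5 animals per genotype, but the labels do not tie a wild-type library to a mutant line, so the first 5 wild-type libraries (WT Rep1 to Rep5) and the other 5 (WT Rep6 to Rep10) are also given apart. The 10 wild-type libraries served as controls for KO and for R47H, so these differences share their controls. Trem2 is a surface receptor of macrophages and microglia that binds lipids and signals through the adaptor Tyrobp.

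A G protein is switched on when a receptor makes its alpha subunit exchange GDP for GTP, which frees the beta and gamma subunits to act as well. RGS proteins bind the active alpha subunit and speed the hydrolysis of its GTP, so that the subunits come together again and the signal ends. In leukocytes they are known for setting how long and how strongly chemokine, lipid and nucleotide receptors signal, and for limiting migration towards chemoattractants.

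Levels are given in FPKQ, the authors' unit, treated here as a value per length of transcript on a quantile scale. An FPKQ of 1 in a transcript of 2 kb corresponded to an estimated 46.4 to 57.3 sequenced fragments in KO, 47.9 to 57.3 in R47H and 54.6 to 70.1 in WT. Trem2 itself lay between 23.7 and 24.8 FPKQ in KO, 496 and 794 in R47H and 691 and 901 in WT, so every KO library lay far below the others while R47H and WT overlapped. The macrophage markers Adgre1, Csf1r and Cd68 were abundant in every library, for example Csf1r at 1308 ± 55.0 FPKQ in KO, 1085 ± 116 in R47H and 935 ± 40.3 in WT (SD, n = 5, 5 and 10). Of 9 macrophage markers, 5 rose and 3 fell in KO (Itgam, Fcgr1 and Cd14) and 4 rose and 2 fell in R47H (Itgam and Cd14) against WT (limma, adjusted p under 0.05). Over all 10843 genes tested, 28.2% rose and 23.7% fell in KO, and 13.4% rose and 7.83% fell in R47H. The summed level of the 9 markers, most of it Lyz2, ran from 32530 to 35303 FPKQ in KO, from 26487 to 29555 in R47H and from 23219 to 26642 in WT. Summed markers of T and NK cells, mast cells, stroma and erythroid cells reached at most 2.32 FPKQ in any library, and those of B cells and dendritic cells at most 3.10 FPKQ. The 10 neutrophil markers summed to 98.7 to 129 FPKQ in KO, 86.4 to 150.5 in R47H and 70.7 to 107 in WT. Most of this sum was Csf3r, S100a9 and S100a8. In KO, R47H and WT their means were 55.6, 43.1 and 29.8 FPKQ for Csf3r, 33.9, 47.5 and 33.6 for S100a9, and 18.0, 24.7 and 17.9 for S100a8. In the same order of groups, means were 5.925, 7.968 and 5.219 FPKQ for Ngp, and 1.102, 0.822 and 0.438 for Mpo. Elane had means of 1.004, 0.549 and 0.374 FPKQ, and Camp had 0.255, 0.736 and 0.463. Group means of Ly6g, Cxcr2 and Retnlg were at most 0.164 FPKQ.

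Rgs1, Rgs2 and Rgs18, the members that differed most between KO and WT, lie in a cluster on the minus strand of chromosome 1. In GENCODE M21 coordinates on GRCm38, Rgs2 (ENSMUSG00000026360.9) is at chr1:143999338-144004161, Rgs1 (ENSMUSG00000026358.13) at chr1:144242296-144249242 and Rgs18 (ENSMUSG00000026357.3) at chr1:144752683-144775435. The RefSeq promoter table on GRCm38.p6 holds windows for 5 of the 8 members, and of the chromosome 1 genes it holds Rgs2. The stretch upstream of the annotated Rgs2 starts, chr1:144004162-144004399 on the minus strand, is shown because Rgs2 was the most abundant member that differed between the groups. Capitals mark a CCAAT box and 4 GC boxes, which read CCGCCC on the printed strand.
Rgs2: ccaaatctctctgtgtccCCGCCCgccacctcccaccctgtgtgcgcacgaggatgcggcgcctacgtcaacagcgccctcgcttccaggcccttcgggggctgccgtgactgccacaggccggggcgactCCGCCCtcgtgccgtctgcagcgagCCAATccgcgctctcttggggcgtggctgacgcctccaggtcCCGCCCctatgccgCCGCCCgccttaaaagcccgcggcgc
The CCAAT box began at -94 from the RefSeq start and the GC boxes at -232, -119, -52 and -38, and none overlapped another. Searched on both strands in windows of 300 bases, from 250 before each start to 50 after it, CCAAT occurred in 37.4% of 32851 mouse windows and GGGCGG in 35.7%. The Rgs2 window held no TATA box (TATAAA, in 13.6% of windows), no full cAMP response element (TGACGTCA, in 1.79%) and no AP-1 site (TGANTCA, in 7.81%). Only the letters given were searched, so shorter or altered forms of these sites were not counted. These matches describe the letters of the window and do not show binding.

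Of the 8 members, 6 had lower levels in every KO library than in any WT library, namely Rgs1, Rgs2, Rgs18, Rgs3, Rgs14 and Rgs19. Among the 10843 genes that averaged 1 FPKQ or more, 13.3% lay wholly lower in KO, and since the members were chosen with these values known, nothing is read from that comparison and the members carry no test. Rgs10 and Rgs12 overlapped between KO and WT. In R47H, 2 members lay wholly below WT, Rgs2 and Rgs12, against 3.14% of all 10843 genes. That count was 4 with WT Rep6 to Rep10 as the only controls (Rgs1 and Rgs18 added) and 4 with libraries scaled to equal sums (Rgs18 and Rgs3 added). Against KO, 5 members lay wholly higher in R47H (Rgs1, Rgs2, Rgs18, Rgs3 and Rgs14), against 12.3% of all genes. The median log2 difference over the 8 members was -0.74 for KO minus WT, -0.18 for R47H minus WT and 0.62 for R47H minus KO, beside 0.01, 0.04 and 0.03 over all 10843 genes. In bulk RNA, fewer cells that express a gene and less RNA per cell cannot be told apart.

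**Figure D1:**
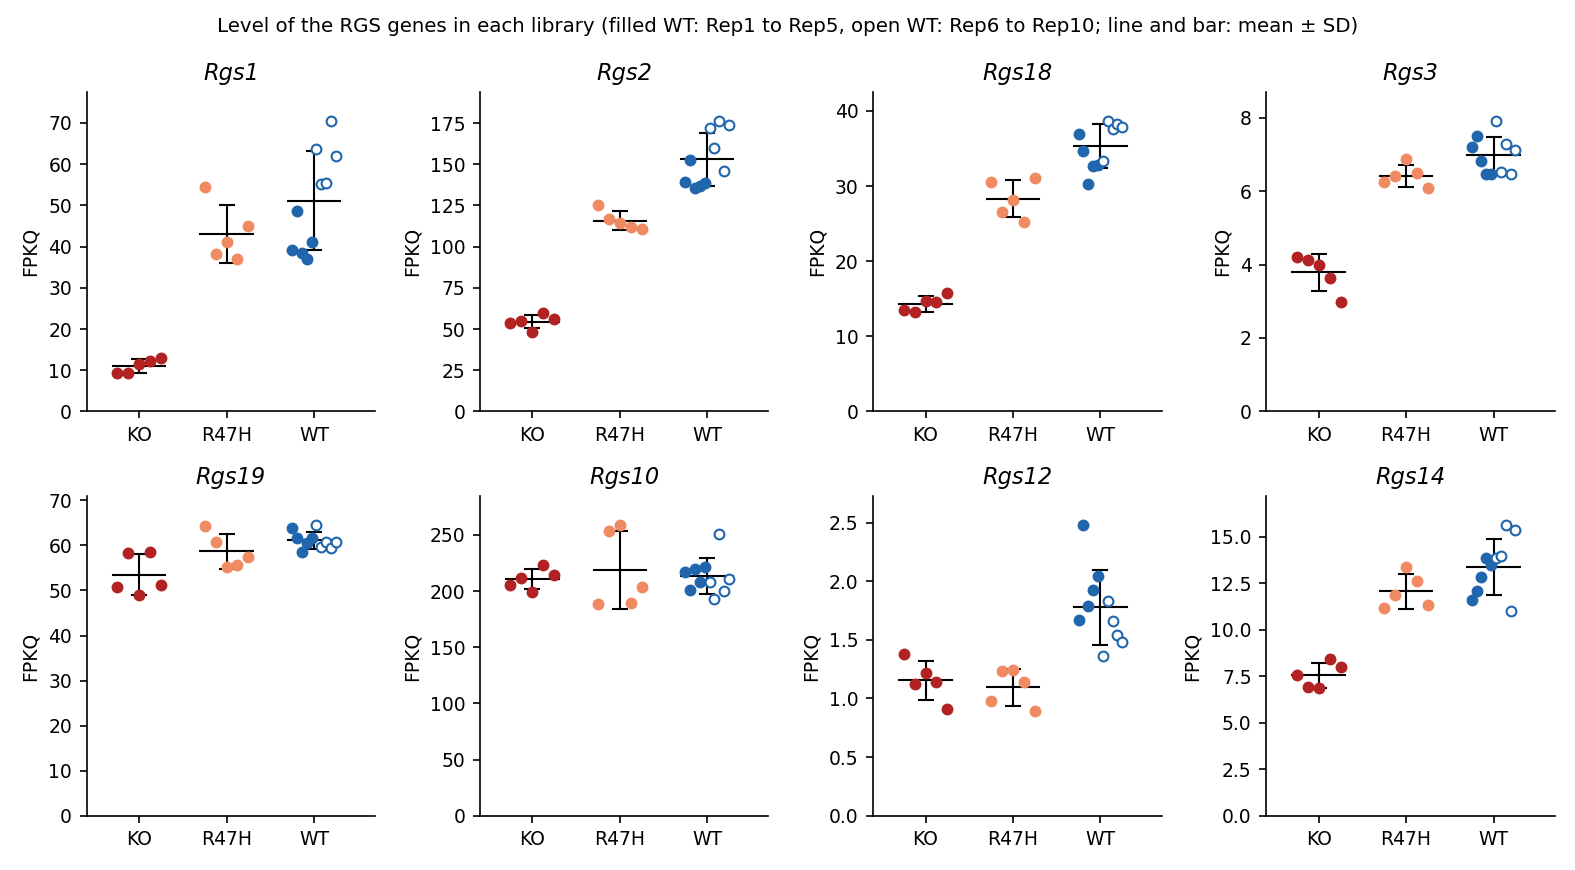
Level of each of the 8 RGS genes in FPKQ, with 1 point per library in the order KO, R47H and WT, filled WT points for Rep1 to Rep5, open ones for Rep6 to Rep10, and lines and bars for the mean ± SD. KO points lie below all WT points for Rgs1, Rgs2, Rgs18, Rgs3, Rgs14 and Rgs19, while Rgs10 overlaps in all groups.

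The first 3 members to describe belong to the subfamily of small RGS proteins that are little more than the catalytic domain. Rgs1, which acts on Gi and Gq alpha subunits and is known for restraining chemokine-driven migration of lymphocytes, had 9.25, 9.35, 11.4, 12.2 and 12.9 FPKQ in KO. In R47H it had 54.4, 38.2, 41.2, 36.9 and 44.9 FPKQ, and in WT the lowest, median and highest values were 36.9, 51.9 and 70.5 FPKQ. All KO values lay far below the other groups, and R47H overlapped WT. On average KO had 21.6% of the WT level, a difference of -2.09 ± 0.14 on the log2(FPKQ + 1) scale (standard error, from the fit across all genes). For R47H minus WT the difference was -0.22 ± 0.14, and for R47H minus KO it was 1.87 ± 0.16.

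The wild-type libraries themselves fell into separate ranges for Rgs1. WT Rep6 to Rep10 lay between 55.3 and 70.5 FPKQ, all above WT Rep1 to Rep5, which lay between 36.9 and 48.6 FPKQ, and their mean was 150% of that of WT Rep1 to Rep5. R47H therefore differed from wild type by 0.07 when only WT Rep1 to Rep5 were used and by -0.51, without overlap, when only WT Rep6 to Rep10 were used (log2 scale). KO lay below both sets, with differences of -1.80 and -2.38. The labels give no batch for these sets, and what sets them apart was not tested.

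Rgs2, which acts mainly on Gq alpha and can also dampen adenylyl cyclase, had 53.8, 55.1, 48.2, 59.4 and 55.8 FPKQ in KO. In R47H it had 125, 117, 115, 112 and 111 FPKQ, and in WT the lowest, median and highest values were 136, 149 and 176 FPKQ. The 3 groups did not overlap, with KO lowest, R47H between and WT highest. The KO mean was 35.6% of the WT mean and the R47H mean 75.7% of it. The log2 difference was -1.47 ± 0.07 for KO minus WT, -0.39 ± 0.07 for R47H minus WT and 1.08 ± 0.08 for R47H minus KO. R47H lay wholly below WT Rep1 to Rep5 (-0.28) and below WT Rep6 to Rep10 (-0.51).

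Rgs18, which acts on Gi and Gq alpha and is best known from platelets and megakaryocytes, had 13.5, 13.2, 14.7, 14.6 and 15.7 FPKQ in KO. In R47H it had 30.5, 26.6, 28.2, 25.2 and 31.1 FPKQ, and in WT the lowest, median and highest values were 30.3, 35.8 and 38.7 FPKQ. KO stood apart from both groups, and 3 of the 5 R47H libraries lay below the lowest WT library. The log2 difference was -1.24 ± 0.06 for KO minus WT, -0.31 ± 0.06 for R47H minus WT and 0.93 ± 0.07 for R47H minus KO. Rgs18 has a single annotated transcript, and its levels correspond to about 747 fragments per library in KO, 1506 in R47H and 2182 in WT.
The 8 megakaryocyte and platelet markers summed to 20.1 to 35.0 FPKQ in KO, 12.7 to 29.8 in R47H and 15.7 to 23.9 in WT. How this list relates to the level of Rgs18 was not tested. Pf4 made up most of the sum, at 19.6 ± 4.85 FPKQ in KO, 19.2 ± 6.56 in R47H and 17.6 ± 2.73 in WT. Ppbp had 2.976 ± 0.579, 1.015 ± 0.338 and 0.636 ± 0.401 FPKQ in KO, R47H and WT. Itga2b had 0.97 ± 0.38, 0.28 ± 0.14 and 0.29 ± 0.12 FPKQ in KO, R47H and WT (SD, n = 5, 5 and 10).

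Rgs3, a relative of these 3 that also has longer isoforms with a PDZ domain, was a low-level transcript. It had 4.22, 4.13, 3.99, 3.64 and 2.97 FPKQ in KO and 6.24, 6.40, 6.86, 6.49 and 6.08 FPKQ in R47H, and in WT the lowest, median and highest values were 6.46, 6.97 and 7.91 FPKQ. KO lay below the other groups, and R47H overlapped the lower end of WT. Mean levels in KO were 54.3% of those in WT. The log2 difference was -0.74 ± 0.06 for KO minus WT, -0.10 ± 0.06 for R47H minus WT and 0.64 ± 0.07 for R47H minus KO. Rgs3 is at chr4:62559847-62704001 on the plus strand, and the antisense gene Gm11209 that overlaps it was listed at 0 in the group means.

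Rgs19, also known as GAIP, belongs to the RZ subfamily and acts on Gi alpha. In KO it had 50.7, 58.3, 49.0, 58.5 and 51.1 FPKQ, in R47H 64.4, 60.8, 55.2, 55.6 and 57.5 FPKQ, and in WT its lowest, median and highest values were 58.5, 60.7 and 64.5 FPKQ. The highest KO library lay just under the lowest WT library, so the groups touch although they do not overlap. The KO mean was 87.6% of the WT mean, with a log2 difference of -0.19 ± 0.05. R47H overlapped both other groups, at -0.06 ± 0.05 against WT and 0.13 ± 0.05 against KO. Rgs19 is at chr2:181688419-181693977 on the minus strand.

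The last 3 members form one subfamily, in which Rgs10 is little more than the RGS domain while Rgs12 and Rgs14 also carry Ras-binding and GoLoco domains. Rgs10, which acts on Gi alpha and is abundant in microglia and macrophages, had 206, 212, 199.5, 224 and 214 FPKQ in KO. In R47H it had 189, 254, 259, 189.5 and 204 FPKQ, and in WT the lowest, median and highest values were 193, 209.8 and 251 FPKQ. All groups overlapped, and the R47H libraries spread most, with 2 above and 2 below the whole KO range. The KO mean was 99.0% of the WT mean, and the log2 difference was -0.01 ± 0.07 for KO minus WT, 0.03 ± 0.07 for R47H minus WT and 0.04 ± 0.08 for R47H minus KO. Rgs10 is at chr7:128373621-128418758 on the minus strand, and Gm15503, which overlaps it on the same strand, had group means of 0.518, 0.391 and 0.374 FPKQ in KO, R47H and WT.

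Rgs12, the largest of the 8 proteins, had the lowest level of the members. Its values were 1.38, 1.13, 1.21, 1.14 and 0.91 FPKQ in KO and 0.97, 1.24, 1.24, 1.14 and 0.89 FPKQ in R47H, and in WT the lowest, median and highest were 1.36, 1.73 and 2.48 FPKQ. R47H lay wholly below WT, but not after quantile normalization. KO and WT overlapped through 1 library each, KO Rep1 at 1.38 and WT Rep6 at 1.36 FPKQ. The KO mean was 64.9% and the R47H mean 61.7% of the WT mean. On the log2 scale the difference was -0.36 ± 0.08 for KO minus WT and -0.40 ± 0.08 for R47H minus WT, and at this level the added 1 FPKQ makes it smaller than the ratio of the means. Rgs12 was the only one of the 8 members with a mean log2 difference from WT below that of KO in R47H, and R47H minus KO was -0.04 ± 0.09. Rgs12 is at chr5:34949445-35039644 on the plus strand, and its antisense neighbour Gm43791 had group means of at most 0.074 FPKQ.

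Rgs14, a scaffold that binds Gi alpha in both its active and its inactive form, had 7.54, 6.93, 6.88, 8.40 and 8.0 FPKQ in KO. In R47H it had 11.1, 11.9, 13.4, 12.6 and 11.3 FPKQ, and in WT the lowest, median and highest values were 11, 13.6 and 15.6 FPKQ. KO stood apart from both other groups, and all R47H values fell within the WT range. On average KO had 56.5% of the WT level. The log2 difference was -0.74 ± 0.07 for KO minus WT, -0.13 ± 0.07 for R47H minus WT and 0.61 ± 0.08 for R47H minus KO. Rgs14 is at chr13:55369732-55384687 on the plus strand.

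**Figure D2:**
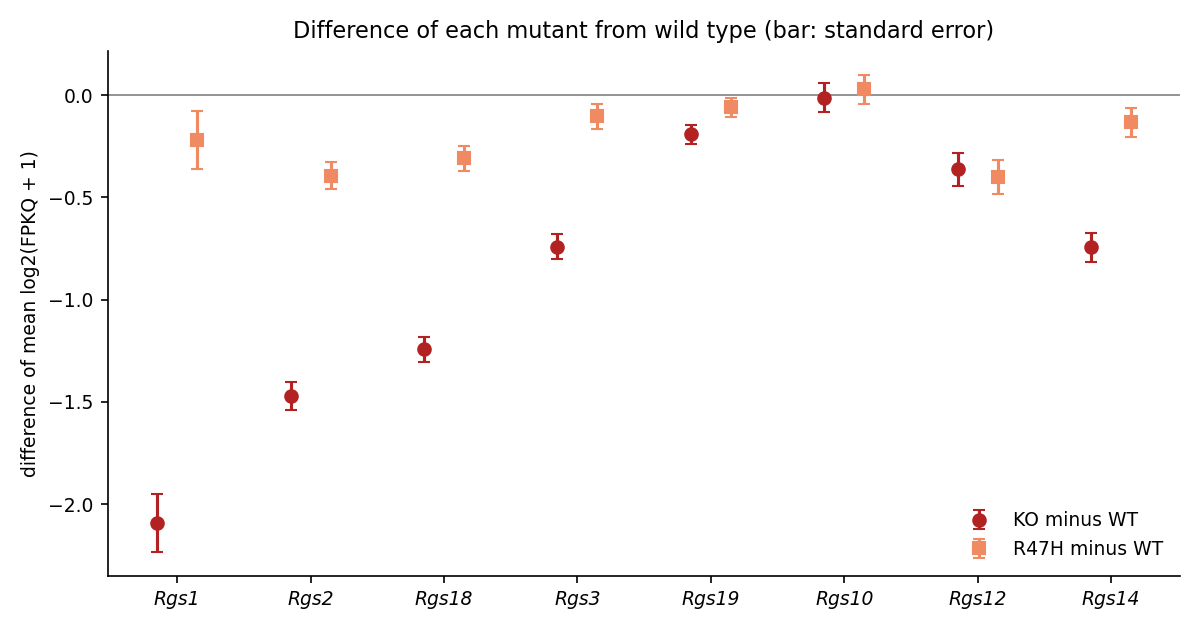
Difference of the mean log2(FPKQ + 1) of KO (circles) and R47H (squares) from WT for the 8 RGS genes, with bars for the standard error of the fit. KO runs from -2.09 for Rgs1 to -0.01 for Rgs10, and R47H lies nearer 0 than KO for Rgs1, Rgs2, Rgs18, Rgs3, Rgs19 and Rgs14.

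The make-up of the 8 transcripts differed between the groups. Their levels summed to 334.9 to 382 FPKQ in KO, 439.7 to 519 in R47H and 497 to 606 in WT, with means of 357, 485 and 536 FPKQ, so KO did not overlap the others while R47H and WT did. Rgs10 made up 59.1% ± 0.39 of the sum in KO, 45.0% ± 4.46 in R47H and 39.8% ± 2.75 in WT. The share of Rgs2 was 15.3% ± 0.49 in KO, 24.0% ± 1.72 in R47H and 28.5% ± 1.55 in WT, and that of Rgs1 was 3.09% ± 0.44, 8.93% ± 1.55 and 9.49% ± 1.94 (SD, n = 5, 5 and 10).
In every group Rgs10 was highest, and Rgs14, Rgs3 and Rgs12 closed the order with ranges that did not overlap. In KO, Rgs2 and Rgs19 came next and overlapped, followed by Rgs18 and then Rgs1. In R47H all neighbours in the order Rgs10, Rgs2, Rgs19, Rgs1, Rgs18, Rgs14, Rgs3 and Rgs12 had separate ranges. In WT the order of the means was the same as in R47H, but Rgs19 overlapped Rgs1 and Rgs1 overlapped Rgs18.

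**Figure D3:**
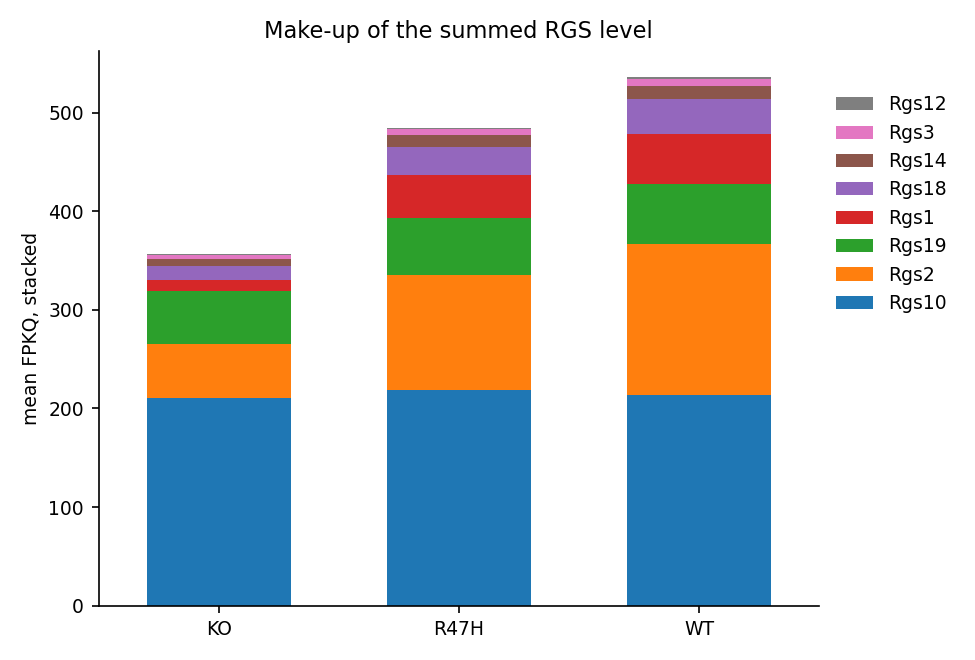
Mean FPKQ of the 8 RGS genes stacked for KO, R47H and WT, so that each bar's height is the summed level. Rgs10 takes about the same height in each bar, while the Rgs2, Rgs1 and Rgs18 layers are thinnest in KO.

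Rgs1 was reduced beyond Rgs2 in KO. The ratio of Rgs1 to Rgs2 was 0.203 ± 0.032 in KO, 0.371 ± 0.048 in R47H and 0.332 ± 0.063 in WT (SD, n = 5, 5 and 10), and the highest KO ratio, 0.237, lay under the lowest WT ratio, 0.270. Rgs18 and Rgs2 kept closer to each other, with a ratio of Rgs18 to Rgs2 of 0.264 ± 0.028 in KO, 0.245 ± 0.022 in R47H and 0.232 ± 0.022 in WT, and these ranges overlapped. As a description of likeness, the root mean square difference between log2 values over the 20 libraries, each gene centred on its own mean, was smallest among the 28 pairs of members for Rgs2 with Rgs18 (0.15) and next for Rgs3 with Rgs14 (0.16) and for Rgs19 with Rgs10 (0.16). It was 0.37 for Rgs1 with Rgs2, and largest for Rgs1 with Rgs10 (0.92).

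By the same measure the 10843 genes were ranked against the 3 members with the largest KO difference. Rgs1 was most like Plau, the urokinase plasminogen activator (0.18), Lpl, lipoprotein lipase (0.18), and Stap1, a signalling adaptor (0.20). Plau had 48.4 ± 9.08 FPKQ in KO, 159 ± 37.2 in R47H and 186 ± 44.3 in WT (SD, n = 5, 5 and 10). Rgs2 was most like Cd14, the co-receptor for bacterial lipopolysaccharide (0.12), and Rpa2 and Pcna, which take part in DNA replication (0.13 each). Cd14 had 301 ± 20.6 FPKQ in KO, 581 ± 40.5 in R47H and 731 ± 118 in WT. Rgs18 was most like Asph, an aspartate beta-hydroxylase (0.09), the transcription factor Ets1 (0.13) and A630033H20Rik (0.13). Asph had 26.5 ± 0.93 FPKQ in KO, 54.3 ± 3.31 in R47H and 67.4 ± 5.54 in WT. These likenesses rest on the same 20 libraries and mostly on the step between KO and the other groups.

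Between Rgs2 and Rgs18 the cluster on chromosome 1 spans 776.1 kb, with Rgs13 between Rgs2 and Rgs1 and Rgs21 between Rgs1 and Rgs18. Rgs21 was listed at 0 in every library, and the highest Rgs13 value in any library was 0.023 FPKQ. Within 500 kb of the cluster, 4 other genes had a mean of at least 1 FPKQ, all on the Rgs2 side. Uchl5, a deubiquitinating enzyme, was lower at 17.8 ± 1.43 FPKQ in KO against 23.3 ± 1.86 in WT (SD, n = 5 and 10), a log2 change of -0.37 ± 0.07 (limma, adjusted p = 7.2e-05).
Cdc73, a subunit of the PAF complex, was higher at 5.67 ± 0.52 FPKQ in KO against 5.01 ± 0.30 in WT, a log2 change of 0.15 ± 0.06 (limma, adjusted p = 0.0322). This call was lost under 9 of 32 other settings, among them without KO Rep3, KO Rep5 or WT Rep6 (adjusted p = 0.131, 0.0792 and 0.0523). It was also lost with libraries scaled to equal sums or by median ratio (limma, adjusted p = 0.351 and 0.0545). With either wild-type set as the only controls it was lost too (limma, adjusted p = 0.131 and 0.0722). Glrx2 had 17.5 ± 0.90 FPKQ in KO and 18.9 ± 1.98 in WT, and Trove2 had 5.50 ± 0.43 in KO and 5.54 ± 0.56 in WT, and neither passed (limma, adjusted p = 0.233 and 0.946). In R47H none of these 4 genes passed against WT, with limma adjusted p between 0.0766 for Glrx2 and 0.899 for Cdc73.

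**Figure D4:**
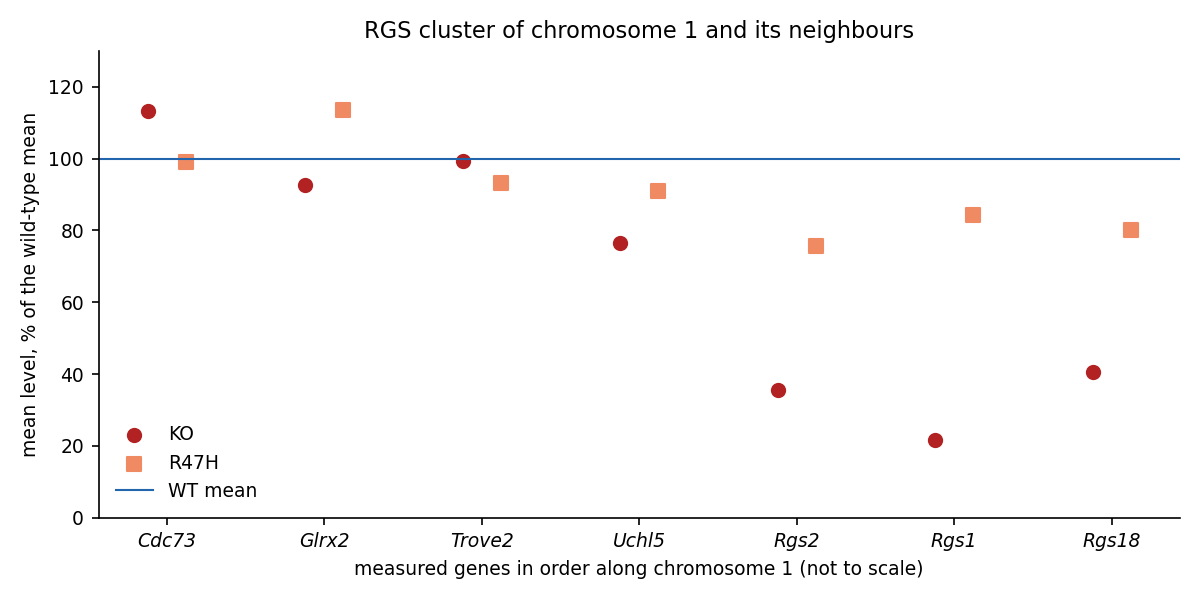
Mean level in KO (circles) and R47H (squares) as a percent of the WT mean (line at 100%) for the measured genes in and beside the RGS cluster of chromosome 1, in gene order. Rgs2, Rgs1 and Rgs18 lie at 35.6%, 21.6% and 40.6% in KO, and the 4 neighbours lie nearer the line.

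Outside the 8 members, 13 genes carry an Rgs symbol. Of these, 6 were listed at 0 in every library (Rgs4, Rgs6, Rgs7, Rgs17, Rgs21 and Rgs22), 5 did not exceed 0.191 FPKQ in any library (Rgs5, Rgs8, Rgs9, Rgs13 and Rgs20), and Rgs16 and Rgs11 reached a mean of 1 FPKQ in at least one group.
Rgs16, a small RGS protein of the same subfamily as Rgs1 that acts on Gi and Gq alpha, had 0.223 ± 0.084 FPKQ in KO, 1.21 ± 0.48 in R47H and 1.25 ± 0.51 in WT (SD, n = 5, 5 and 10). Its highest KO value, 0.327 FPKQ, lay under the lowest WT value, 0.584 FPKQ. KO minus WT was -0.85, R47H minus KO 0.82 and R47H minus WT -0.03 on the log2(FPKQ + 1) scale. At the level of Rgs16 the added 1 FPKQ makes these differences much smaller than the ratios of the means. Its mean over all libraries was under the minimum for the fit, and a permutation test added after its values were seen would only restate that the KO values lie apart, so no p is given. As for Rgs1, WT Rep6 to Rep10 lay higher than WT Rep1 to Rep5, at 1.61 ± 0.44 against 0.885 ± 0.218 FPKQ (SD, n = 5 each).
Rgs11, a member of the subfamily that pairs with the beta subunit Gnb5, had 0.789 ± 0.222 FPKQ in KO, 1.18 ± 0.17 in R47H and 1.17 ± 0.37 in WT, and the groups overlapped. KO minus WT was -0.27 ± 0.11 (limma, adjusted p = 0.0457), and R47H minus WT was 0.02 ± 0.11 (limma, adjusted p = 0.906). Here too the added 1 FPKQ makes the KO difference smaller than the ratio of the means. The KO call was lost under 17 of 31 other settings, among them without any 1 of KO Rep1 and Rep3, R47H Rep1 and Rep4, and WT Rep2, Rep3, Rep4, Rep5, Rep7 and Rep10 (adjusted p from 0.05 to 0.136). It was also lost after quantile normalization (limma, adjusted p = 0.413). With only WT Rep1 to Rep5 or only WT Rep6 to Rep10 as controls it was lost too (limma, adjusted p = 0.0546 and 0.127).

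The partners of RGS proteins were followed in lists of other RGS-domain proteins, G protein subunits, other regulators, effectors and receptors, written with earlier results of these data known. With the other Rgs genes they held 158 genes, of which 104 had a mean of at least 1 FPKQ. In KO against WT 38 rose, 27 fell and 39 did not pass (limma, adjusted p under 0.05), while 28.2% of all tested genes rose and 23.7% fell. In R47H against WT 18 rose, 11 fell and 75 did not pass, while 13.4% of all tested genes rose and 7.83% fell. In R47H against KO 25 rose, 29 fell and 50 did not pass, while 22.8% of all tested genes rose and 18.0% fell. The median log2 change of the 104 genes was 0.03 in KO and 0.05 in R47H against WT, beside 0.01 and 0.04 over all tested genes.

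Of 12 tested genes for other proteins with an RGS domain, 6 rose and 1 fell in KO, with a median log2 change of 0.10. Grk3, a kinase that phosphorylates active receptors, rose to 4.26 ± 0.40 FPKQ in KO, against 2.05 ± 0.32 in WT (SD, n = 5 and 10; log2 change 0.79 ± 0.09, limma adjusted p = 3.29e-07). Arhgef12, a guanine nucleotide exchange factor, rose by 0.54 ± 0.08 (adjusted p = 8.12e-06). The receptor kinase Grk6 fell by 0.26 ± 0.05 (adjusted p = 4.87e-05). In R47H 2 of the 12 rose, Grk3 with a log2 change of 0.49 ± 0.09 (limma, adjusted p = 0.000638) and Grk2, named after its values were seen, with 0.14 (limma, adjusted p = 0.012), and 0 fell. Grk2 also rose in KO, by 0.10 (limma, adjusted p = 0.0326). Grk2 was not among the named genes recomputed under other settings. Scaling libraries to equal sums moved the median log2 change over all tested genes from 0.04 to -0.07 in R47H and from 0.01 to -0.06 in KO.

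Among the alpha subunits, the direct targets of RGS proteins, 2 of 9 tested genes rose and 1 fell in KO, with a median log2 change of -0.01. Gnas, the Gs alpha subunit that activates adenylyl cyclase, fell to 322 ± 29.5 FPKQ in KO, against 490.0 ± 18.9 in WT (SD, n = 5 and 10; log2 change -0.61 ± 0.05, limma adjusted p = 2.97e-09). Gna12 rose by 0.36 ± 0.07 (adjusted p = 8.26e-05) and Gna13 by 0.17 ± 0.05 (adjusted p = 0.00883), and the call of Gna13 was lost under 3 of 32 other settings. Gnai2, the most abundant Gi alpha subunit here, and Gnaq were looked up after their values were seen. Gnai2 had 380.2 ± 10.3 FPKQ in KO, 411 ± 19.7 in R47H and 390.2 ± 11.7 in WT, and Gnaq had 33.6 ± 1.76, 34.3 ± 3.21 and 33.8 ± 2.21, and neither passed in KO or R47H against WT (limma, adjusted p = 0.416 and 0.172 for Gnai2, 0.932 and 0.85 for Gnaq). In R47H 0 of the 9 passed against WT.

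Of 11 tested beta and gamma subunits, 4 rose and 4 fell in KO, with a median log2 change of -0.08. Gng2 rose to 131 ± 5.29 FPKQ in KO, against 77.3 ± 4.82 in WT (log2 change 0.75 ± 0.05, limma adjusted p = 2.01e-11), and Gng12 rose to 101 ± 8.86 FPKQ in KO, against 65.8 ± 6.16 in WT (0.61 ± 0.07, adjusted p = 1.18e-07). Gnb4 fell to 3.96 ± 0.59 FPKQ in KO, against 8.57 ± 1.16 in WT (-0.95 ± 0.08, adjusted p = 4.04e-09). In R47H 1 rose, Gngt2, at 79.0 ± 18.0 FPKQ against 44.3 ± 8.05 in WT (0.81 ± 0.15, limma adjusted p = 0.000514), and 1 fell, Gnb4 (-0.34 ± 0.08, adjusted p = 0.00589; SD, n = 5, 5 and 10 throughout). Gngt2 also rose in KO, to 67.3 ± 12.7 FPKQ (0.59 ± 0.15, limma adjusted p = 0.0025), and did not pass in R47H against KO (limma, adjusted p = 0.331).

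Other regulators and arrestins had 1 of 8 tested genes rise and 3 fall in KO, with a median log2 change of -0.04, and 0 of 8 passed in R47H. Arrb1, an arrestin that uncouples receptors from G proteins, rose by 0.32 ± 0.07 (limma, adjusted p = 0.000318). Gpsm1 and Gpsm2, whose GoLoco motifs hold Gi alpha in its GDP form, fell by 0.34 ± 0.08 (adjusted p = 0.000633) and 0.24 ± 0.09 (adjusted p = 0.0319). The call of Gpsm2 was lost under 8 of 31 other settings, among them without KO Rep1, KO Rep2 or WT Rep2 (adjusted p = 0.0738, 0.162 and 0.0507). It was also lost after quantile normalization (limma, adjusted p = 0.0559). With only WT Rep1 to Rep5 or only WT Rep6 to Rep10 as controls it was lost too (limma, adjusted p = 0.181 and 0.0554).

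Effectors showed 9 of 25 tested genes risen and 4 fallen in KO, and 7 risen and 3 fallen in R47H, with median log2 changes of 0.09 and 0.04. Adcy3, an adenylyl cyclase that makes cAMP, rose to 9.72 ± 1.25 FPKQ in KO and 5.17 ± 0.69 in R47H, against 3.22 ± 0.80 in WT (SD, n = 5, 5 and 10; log2 change 1.36 ± 0.12 and 0.56 ± 0.12, limma adjusted p = 3.44e-09 and 0.00154). Pde4b, a phosphodiesterase that breaks cAMP down, rose to 10.4 ± 1.00 FPKQ in KO and 6.41 ± 1.12 in R47H, against 4.12 ± 0.63 in WT (1.16 ± 0.09 and 0.53 ± 0.09, adjusted p = 1.13e-09 and 0.000307). Itpr3, a calcium channel opened by the product of phospholipase C, fell to 2.60 ± 0.31 FPKQ in KO and 4.03 ± 0.26 in R47H, against 5.82 ± 0.46 in WT (-0.92 ± 0.06 and -0.44 ± 0.06, adjusted p = 2.17e-11 and 1.27e-05).

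Most chemoattractant receptors couple to Gi. Of 14 genes tested in that list, 6 rose and 5 fell in KO and 5 rose and 3 fell in R47H, with median log2 changes of -0.11 and 0.14. Cmklr1, the chemerin receptor, rose to 28.0 ± 1.61 FPKQ in KO and 7.99 ± 1.53 in R47H, against 4.29 ± 0.96 in WT (log2 change 2.47 ± 0.12 and 0.77 ± 0.12, limma adjusted p = 3.25e-13 and 6.62e-05). Cx3cr1, the fractalkine receptor, fell to 3.66 ± 0.37 FPKQ in KO and 7.32 ± 2.53 in R47H, against 18.0 ± 2.37 in WT (-2.02 ± 0.14 and -1.24 ± 0.14, adjusted p = 5.79e-11 and 1.02e-06). Ccrl2, a chemerin-binding receptor that does not signal through G proteins, rose by 1.02 ± 0.08 in KO and 0.52 ± 0.08 in R47H (adjusted p = 2.84e-10 and 3.38e-05).
Of 24 other G protein coupled receptors tested, 10 rose and 8 fell in KO and 3 rose and 4 fell in R47H, with median log2 changes of 0.04 and 0.05. P2ry1, a Gq-coupled ADP receptor, fell to 4.27 ± 0.59 FPKQ in KO and 13.3 ± 1.95 in R47H, against 19.7 ± 1.65 in WT (-1.98 ± 0.08 and -0.54 ± 0.08, limma adjusted p = 2.42e-14 and 3.57e-05). Gpr183, the oxysterol receptor EBI2, fell by 1.22 ± 0.09 in KO and 0.55 ± 0.09 in R47H (adjusted p = 2.99e-10 and 0.000148). S1pr2, a sphingosine-1-phosphate receptor, fell by 0.49 ± 0.04 in KO (adjusted p = 3.16e-09). Its change of 0.13 ± 0.04 in R47H (adjusted p = 0.0293) was lost under 9 of 32 other settings. With libraries scaled to equal sums it was 0.01 (limma, adjusted p = 0.867). The call was also lost with median ratio scaling, quantile normalization and WT Rep1 to Rep5 as the only controls (limma, adjusted p = 0.151, 0.225 and 0.191). Without R47H Rep2, Rep3 or Rep5 or WT Rep7 it was lost too (adjusted p from 0.0508 to 0.0734).

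**Figure D5:**
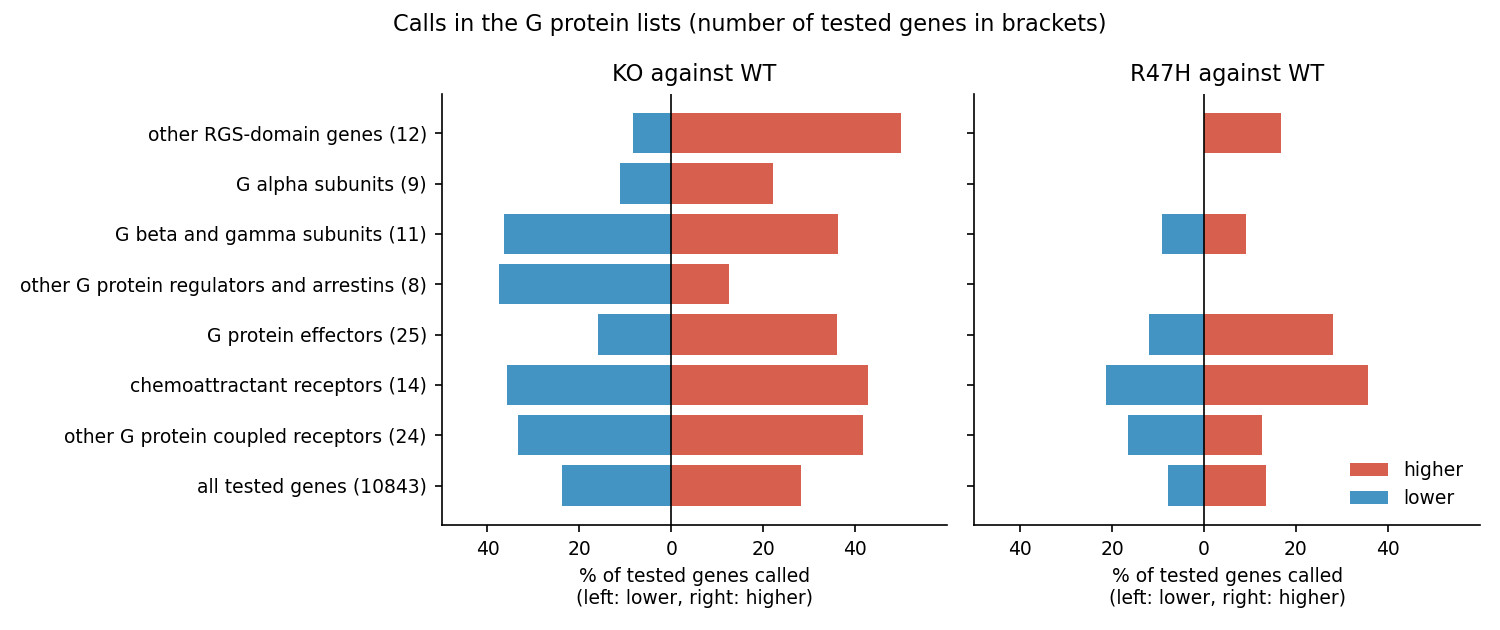
Share of tested genes of each G protein list that were called lower (left) or higher (right) in KO and R47H against WT, with all 10843 tested genes as the bottom row. Of 14 chemoattractant receptors 6 were called higher and 5 lower in KO, and alpha subunits had 0 of 9 genes called in R47H.

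Rgs1, Rgs2 and Rgs16 are known to be induced quickly by stimulation in leukocytes, so immediate early genes, which respond within minutes, were set beside them. Of 13 tested, 1 rose and 8 fell in KO, with a median log2 change of -0.55, and 3 rose and 0 fell in R47H, with a median of 0.09, while in R47H against KO 8 rose and 1 fell. Over all tested genes, 28.2% rose and 23.7% fell in KO against WT. The shares were 13.4% and 7.83% in R47H against WT, and 22.8% and 18.0% in R47H against KO. The summed level of the 14 genes ran from 461 to 528 FPKQ in KO, from 614 to 806 in R47H and from 633 to 864 in WT.
Fos fell to 17.4 ± 2.28 FPKQ in KO, against 67.0 ± 23.7 in WT (SD, n = 5 and 10; log2 change -1.81 ± 0.20, limma adjusted p = 8.9e-08), and Atf3 fell to 138 ± 11.6 FPKQ in KO, against 243 ± 33.3 in WT (-0.80 ± 0.09, adjusted p = 1.4e-07). Ier3 rose in both mutants, to 37.4 ± 3.21 FPKQ in KO and 24.7 ± 3.53 in R47H, against 14.3 ± 5.29 in WT (1.40 ± 0.19 and 0.82 ± 0.19, limma adjusted p = 2.2e-06 and 0.00342). In KO 8 of the 13 tested genes were called lower, and Rgs1, Rgs2 and Rgs16 lay wholly below WT. Against WT, 0 of the 13 fell in R47H, where Rgs2 lay wholly below WT. The part of the list in the levels of these Rgs genes was not tested.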

How the data were processed

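The deposited files hold, for each of 20 libraries, 1 FPKQ value for each of 51456 gene symbols. The authors made these values, treated here as FPKM on a quantile scale, with RSEM on GRCm38, per the submitters' processing notes, and the sources used here do not define FPKQ. RNA was poly-A selected and made into strand-specific libraries read as pairs of 75 bases, per the labels' protocols. Whether counting used strand is not given, so values of genes with antisense partners are less certain.

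Values were analysed as log2(FPKQ + 1). The 10843 genes that averaged 1 FPKQ or more were fitted with limma 3.58.1 in R 4.3.3 (trend) in 1 model of 3 groups. The p-values were adjusted by Benjamini and Hochberg's method, and 0.05 was the threshold. All 8 members passed that minimum, and their standard errors come from this fit. The test was first tried on simulated data. In genes with 1 transcript of at least 600 bases, 86.1% to 94.5% of low values were whole multiples of 1 fragment (tolerance 0.1 fragment). The size of 1 fragment was chosen in each library to make that share largest, so the fragment numbers given are estimates. No count test was run on these normalized values. Libraries of a group correlated at 0.980 to 0.995, and no 2 were identical. Nothing in the labels ties a library to 1 animal, so p-values measure the spread between these libraries.

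Members and lists were chosen with earlier results of these data known. Genes named are the members, for each list the 3 with the smallest adjusted p in KO and 1 in R47H, Rgs genes reaching 1 FPKQ in a group, tested neighbours of the cluster, cell type markers and the 3 genes most like Rgs1, Rgs2 and Rgs18; others are said to be chosen later. Gene positions came from GENCODE M21 on GRCm38. Alternatives covered the wild-type set, scaling, pseudocount, filter, moderation, groups in the fit, the replicate number as a block, and each library left out in turn. Python 3.11.15, numpy 2.4.6, pandas 2.3.3 and matplotlib 3.10.9 were used for summaries and figures.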

Additional observations from a re-analysis of the deposited data

Results flagged for a closer look

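Single libraries stood apart from the rest of their group in 6 of 105 groups examined (35 genes in 3 groups), where chance gives about 1 in 20. Rgs10 was highest in WT Rep8 at 251 FPKQ, with the next WT library at 222. Grk3 was lowest in WT Rep8 at 1.37 FPKQ, with the next at 1.82, and Arhgef12 was highest in WT Rep9 at 3.42, with the next at 2.71. KO Rep3 was highest for Gpsm1 at 2.12 FPKQ, with the next KO library at 1.72, and lowest for P2ry1 at 3.24, with the next at 4.30. R47H Rep3 was highest for Gpsm1 at 3.39 FPKQ, with the next R47H library at 2.74.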

How the results depend on the processing

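The counts of members that did not overlap between groups stayed within 1.5 times of the reported ones, except in R47H against WT. There the count was 4 in place of 2 with WT Rep6 to Rep10 as the only controls, which added Rgs1 and Rgs18, and 4 when libraries were scaled to equal sums, which added Rgs18 and Rgs3. Quantile normalization kept the count at 2 but exchanged Rgs12 for Rgs18. Leaving out 1 library at a time gave 6 to 7 members for KO against WT, 2 to 3 for R47H against WT (3 without WT Rep3, which added Rgs18) and 5 for R47H against KO, and 56 to 67, 24 to 32 and 46 to 59 G protein genes called. Among the 672 recomputed member differences 24 moved by over 1 SD, and none whose groups did not overlap turned sign. Rgs1 in R47H ran from -0.51 to 0.07 on the log2 scale with the wild-type set. With 0.1 or 5 FPKQ added in place of 1, Rgs12 was -0.64 or -0.15 in R47H against WT. Under the same settings Rgs3 was -0.87 or -0.45 in KO against WT. With libraries scaled to equal sums, Rgs19 was -0.18 in R47H and -0.27 in KO against WT. Of 1304 recomputed calls of named genes 46 were lost, in Rgs11, Gpsm2, Gna13, Cdc73 and S1pr2, and 0 turned sign; causes were not tested. Deviations from the group means correlated at -0.25 to 0.34 between same-numbered libraries of different genotypes. For Rep2 the values were 0.34 (KO with WT), 0.22 (R47H with WT) and 0.31 (R47H with KO), and for the other numbers -0.25 to 0.13. Whether the Rep2 libraries share a factor was not tested. With the replicate number as a block the G protein genes called were 53, 27 and 53 in place of 65, 29 and 54. WT Rep6 to Rep10 share no number with a mutant, so this fit also rests on WT Rep1 to Rep5, which alone gave 55, 30 and 53. Counting error weighs on transcripts near or under 1 FPKQ, such as Rgs11, Rgs12 and Rgs16.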
